A study of Mus musculus with 29 samples.

Results

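Of 29 mouse heart libraries, the 9 with the highest mean level of 4 atrial transcripts are called atrial-rich here. They are set against 15 atrial-poor libraries at the other end of the range. They were chosen by measured levels: libraries were ranked by the mean of log2(CPM + 1) of Myl7, Sln, Myl4 and Bmp10, where CPM (the usual depth-scaled count) is the gene's share of all counts of the library. The 9 highest were compared with the 15 lowest, and the 5 libraries between them were described but not tested. The 4 genes chose the libraries, so their values are given as a description with no test, and they were left out of every count. The p-values below say which other genes followed this split within these libraries, and they test no treatment.

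The atria are the thin-walled upper chambers of the heart, and their muscle cells differ from those of the ventricles in the myosin light chains, ion channels and secreted hormones they make. Atrial muscle stores atrial natriuretic peptide (Nppa) in granules, builds its thick filaments with Myl7 and Myl4 where ventricular muscle uses Myl2 and Myl3, and holds back the calcium pump with sarcolipin (Sln) as well as phospholamban. Bmp10 is a secreted growth factor which in the adult mouse is made mainly in the right atrium. The atrial wall also holds endocardium, fat, large vessel roots and nerve endings in other proportions than the ventricular wall.

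Each library came from 1 wildtype BALB/c mouse that had received an adeno-associated virus whose Tbg promoter is active in hepatocytes. The virus carried either GFP or the clock repressor REV-ERBα, which belongs to the nuclear receptors, and 10 days later the mice received C26 colon tumour cells under the skin or PBS. The groups were PBS_GFP (4 mice, GFP virus, no tumour), PBS_REV-ERBa (5 mice, REV-ERBα virus, no tumour), C26_GFP (10 mice, GFP virus, tumour) and C26_REV-ERBa (10 mice, REV-ERBα virus, tumour). All mice carried the virus, so no group is without it, and the labels name the tissue only as heart, of which about 200 mg was lysed, without saying which chambers were in the sample. Neither ages nor sexes of the mice are given.

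Promoters of 3 genes of the score and of 2 genes that followed it are shown to give the reader the sequences upstream of the transcripts that separate these libraries. They are the 250 bases before the start of each gene on the gene's own strand, from RefSeq on GRCm38.p6, and Sln is named only. Capitals mark matches on either strand to the GATA motif, searched as AGATAA and TGATAA, and to the T-box motif, searched as GGTGTGA. The motifs do not overlap in these windows. Of 32851 RefSeq promoter windows of this length, 16.6% held a GATA match and 3.33% a T-box match.
Nppa (chr4:148000472-148000721, plus strand): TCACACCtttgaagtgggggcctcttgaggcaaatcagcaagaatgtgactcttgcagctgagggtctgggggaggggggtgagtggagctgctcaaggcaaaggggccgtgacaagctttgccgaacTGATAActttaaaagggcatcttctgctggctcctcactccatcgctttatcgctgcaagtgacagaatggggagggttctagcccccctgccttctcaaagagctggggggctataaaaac
Bmp10 (chr6:87428744-87428993, plus strand): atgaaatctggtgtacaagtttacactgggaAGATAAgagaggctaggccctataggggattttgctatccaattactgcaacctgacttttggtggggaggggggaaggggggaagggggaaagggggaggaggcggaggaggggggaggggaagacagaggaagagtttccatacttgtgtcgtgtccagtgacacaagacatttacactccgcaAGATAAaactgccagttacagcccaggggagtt
Myl7 (chr11:5898783-5899032, minus strand): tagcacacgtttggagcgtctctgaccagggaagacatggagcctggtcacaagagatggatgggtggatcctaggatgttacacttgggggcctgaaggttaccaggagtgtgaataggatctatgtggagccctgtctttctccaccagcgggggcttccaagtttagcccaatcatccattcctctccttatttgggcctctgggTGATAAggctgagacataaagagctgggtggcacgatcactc
Myl4 (chr11:104550413-104550662, plus strand): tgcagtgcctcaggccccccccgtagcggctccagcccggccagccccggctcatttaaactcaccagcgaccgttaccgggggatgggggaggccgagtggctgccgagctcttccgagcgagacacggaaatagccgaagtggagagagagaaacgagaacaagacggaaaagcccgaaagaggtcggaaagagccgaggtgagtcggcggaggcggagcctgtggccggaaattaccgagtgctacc
Mybphl (chr3:108364661-108364910, plus strand): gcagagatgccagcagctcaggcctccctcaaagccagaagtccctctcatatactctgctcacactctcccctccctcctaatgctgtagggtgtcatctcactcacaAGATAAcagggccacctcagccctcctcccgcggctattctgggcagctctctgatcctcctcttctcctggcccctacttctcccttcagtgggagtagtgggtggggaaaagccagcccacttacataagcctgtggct
A GATA match was found in the windows of Nppa, Bmp10, Myl7 and Mybphl, at 2 places in Bmp10, and a T-box match in that of Nppa. Each match is a stretch of letters and was not tested as a binding site.

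The score was between 3.32 and 7.09 in the 9 atrial-rich libraries, between 1.84 and 2.79 in the 5 between, and between 0.0612 and 1.001 in the 15 atrial-poor libraries. The lowest atrial-rich library was C26_REV-ERBa 5, at 3.32, and the next one down, PBS_GFP 3, was at 2.79. On the other side, PBS_REV-ERBa 1 at 1.84 was the lowest library between, and C26_REV-ERBa 2 at 1.001 the highest atrial-poor one. The step into the atrial-rich class is therefore smaller than the range within that class.

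**Figure D1:**
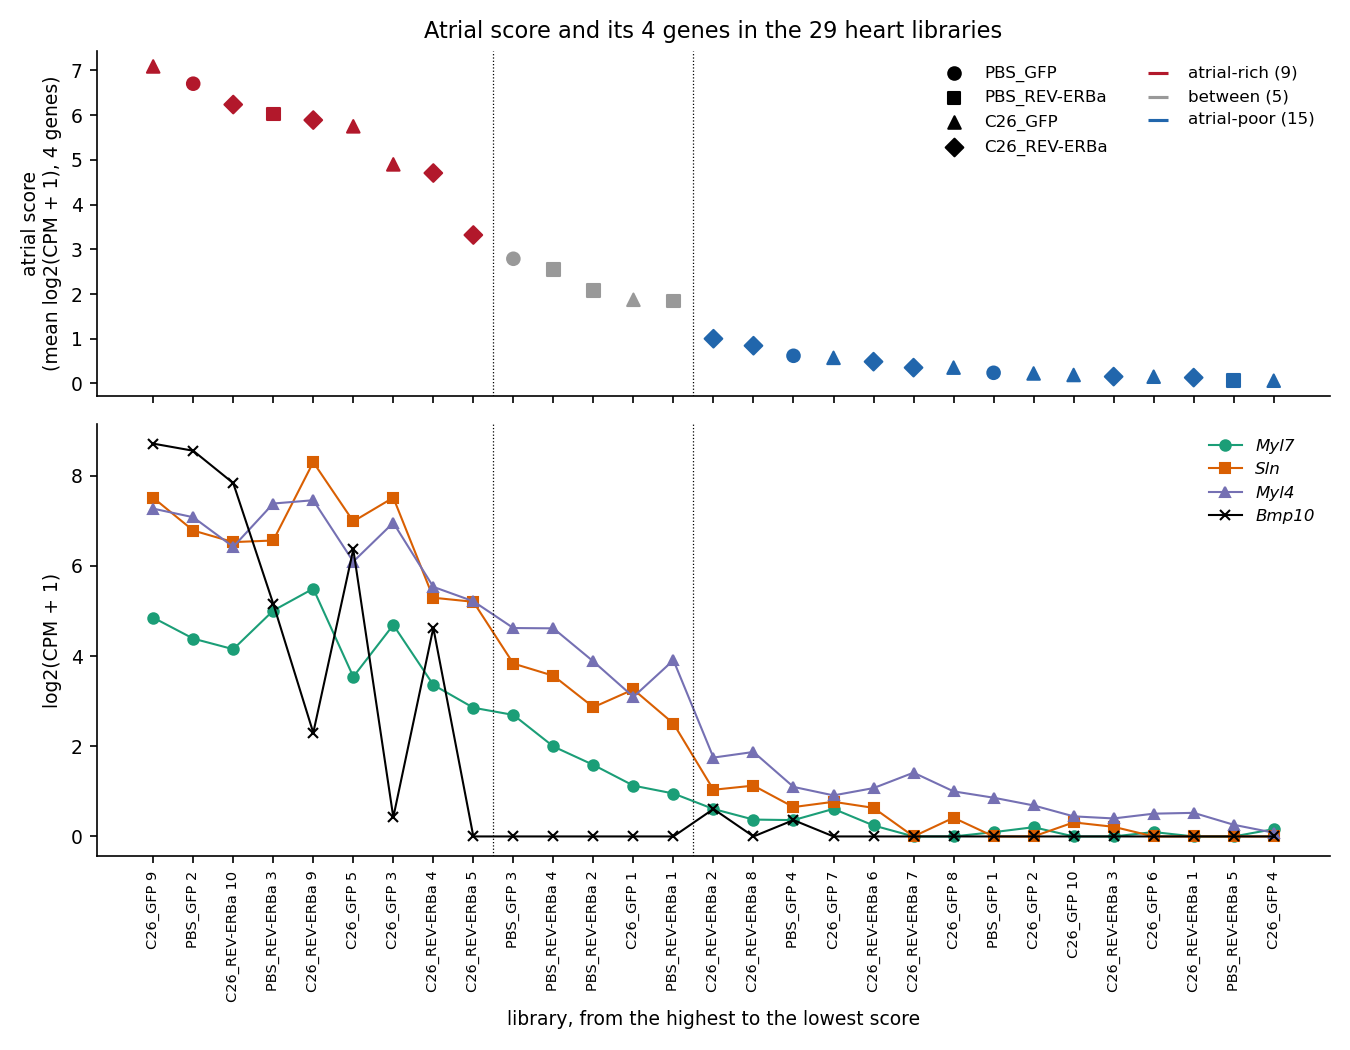
The upper plot gives the atrial score (mean log2(CPM + 1) of 4 genes) of each of the 29 libraries from the highest to the lowest, coloured by class and shaped by group, and the lower plot the log2(CPM + 1) of each gene in the same order. Dotted lines divide the 9 atrial-rich, 5 between and 15 atrial-poor libraries, and Bmp10 drops to 0 inside the atrial-rich class while the other 3 genes stay above it.

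Myl7, the atrial regulatory light chain (NM_022879, chromosome 11, 5896637 to 5898782, mm10), was at 6.24 to 44.2 CPM in the atrial-rich libraries with a median of 19.9, and at 0.00 to 0.528 in the atrial-poor ones, where 6 libraries had no count. Sln (NM_025540, chromosome 9, 53850251 to 53853849) was at 35.9 to 315 CPM with a median of 109, and at 0.00 to 1.18 in the atrial-poor libraries. Myl4, the atrial essential light chain (NM_010858, chromosome 11, 104550663 to 104587219), was at 36.2 to 175 CPM with a median of 123, and at 0.0593 to 2.67 in the atrial-poor libraries. All 3 were above every atrial-poor library in each of the 9, and the 5 libraries between lay in the gap, with Myl7 at 0.935 to 5.48 CPM. Per kilobase of counted length, the median of Myl7 in the atrial-rich libraries was 33.8 CPM, against 714 CPM for Myl2, its ventricular counterpart.

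Bmp10 (NM_009756, chromosome 6, 87428994 to 87434512) did not follow the other 3. In the order of the score it was at 419 CPM in C26_GFP 9, 375 in PBS_GFP 2, 228 in C26_REV-ERBa 10, 34.8 in PBS_REV-ERBa 3, 3.93 in C26_REV-ERBa 9, 81.6 in C26_GFP 5, 0.344 in C26_GFP 3, 23.7 in C26_REV-ERBa 4 and 0.00 in C26_REV-ERBa 5. The last of these had no count, which allows a level of up to 0.456 CPM. C26_REV-ERBa 9 thus held the highest Myl7 and Sln of all libraries with little Bmp10. The 5 libraries between had no Bmp10 count at all, which allows levels of up to 0.444 to 0.935 CPM. With a score of Myl7 and Myl4 alone the 9 atrial-rich and 15 atrial-poor libraries were the same ones.

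The classes did not separate by depth or group. Totals were 4194580 to 12676896 counts in the atrial-rich and 3376113 to 16853646 in the atrial-poor libraries, and the mean log2 total differed by 0.04 (two-sided exact permutation p = 0.87). Tumours were present in 7 of 9 atrial-rich and 12 of 15 atrial-poor mice, and the REV-ERBα virus in 5 of 9 and 7 of 15 (Fisher's exact p = 1 for both). By group, 1 of 4 PBS_GFP, 1 of 5 PBS_REV-ERBa, 3 of 10 C26_GFP and 4 of 10 C26_REV-ERBa libraries were atrial-rich. PBS_REV-ERBa held 3 of the 5 libraries between and C26_REV-ERBa none.

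Several of the 9 libraries also stood apart in transcripts of other tissues. C26_REV-ERBa 9 held adipocyte and airway transcripts at levels seen in no other library, with a summed level of 1463 CPM over the 13 adipocyte markers and 97.8 CPM over the 10 lung and airway markers. The 8 other atrial-rich libraries were at 265 to 387 CPM and 1.67 to 3.14 CPM. The atrial-poor libraries were at 158 to 376 CPM and 0.972 to 4.17 CPM, so these sums overlapped. In that library Scgb1a1, the secretoglobin of airway club cells, was at 73.6 CPM and Ucp1, the brown fat uncoupling protein, at 13.7 CPM, while the highest other library held 0.237 and 0.0954 CPM. The 12 hepatocyte markers summed to 38.1 to 277 CPM in the atrial-rich and 9.83 to 146 in the atrial-poor libraries, which overlapped. Their medians were 99.8 and 33.4 CPM, so a hepatocyte covariate is not independent of class, and a call lost with it does not show a smaller difference. PBS_GFP 2 and C26_REV-ERBa 10 held 27.8 and 38.5 CPM of albumin (Alb) where the highest other library held 13.9. Results without these 3 libraries, or with the summed hepatocyte or adipocyte markers as a covariate, stand beside the gene groups they change, and the part of these transcripts was otherwise not tested.

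**Figure D2:**
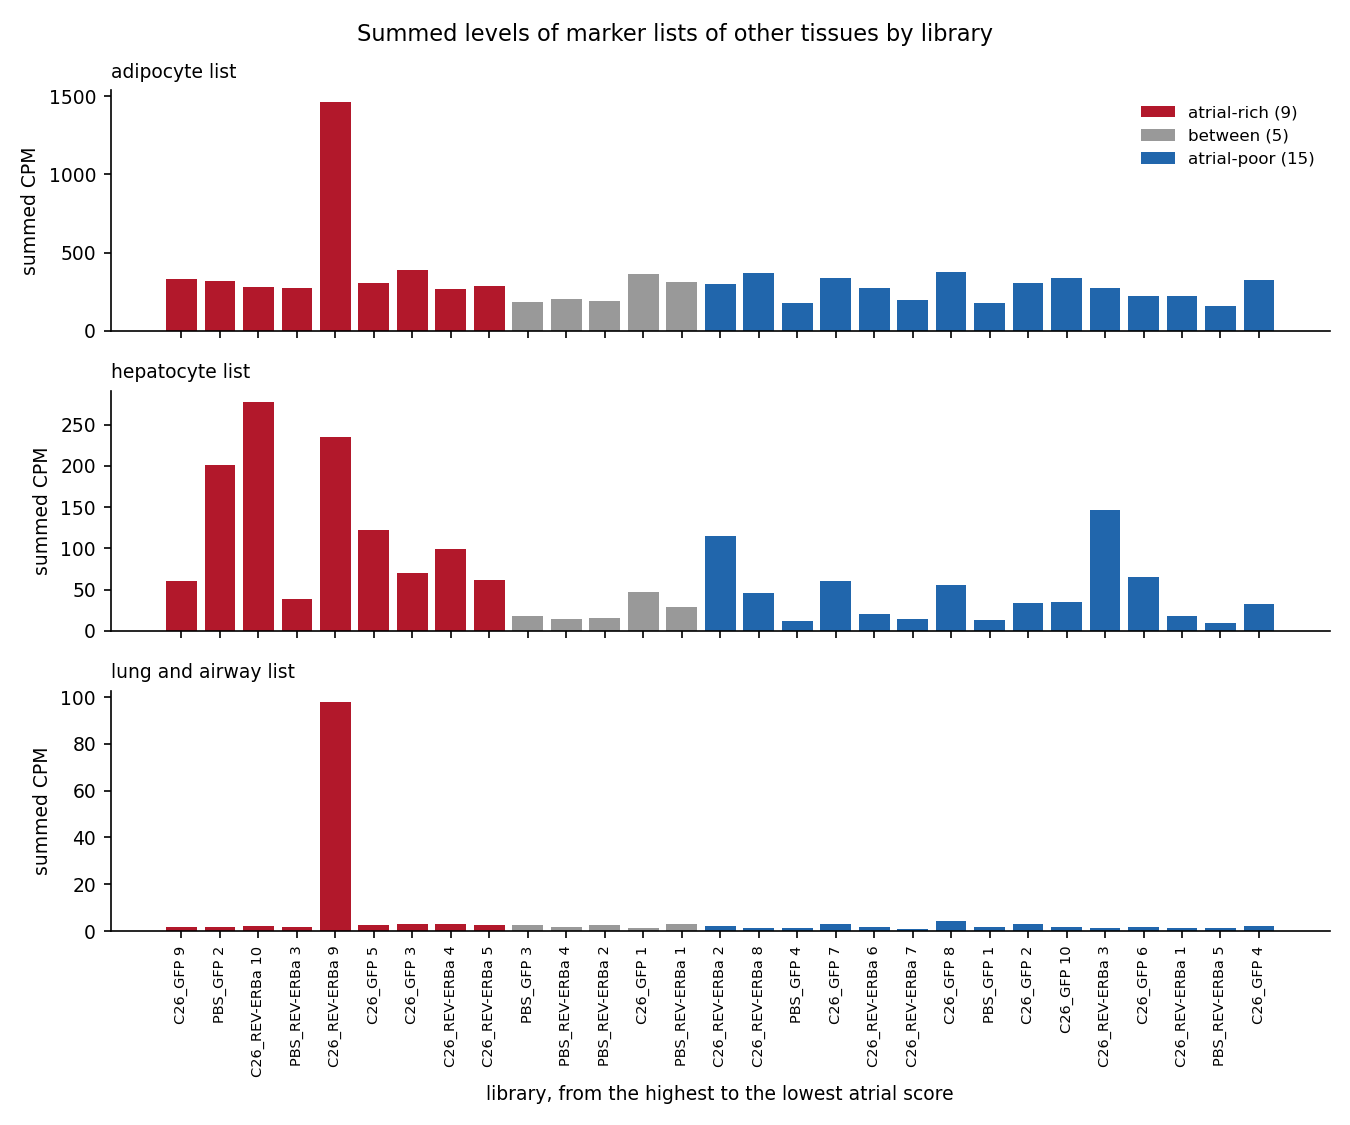
Summed CPM of the adipocyte, hepatocyte, and lung and airway marker lists in each library, in the order of the atrial score and coloured by class. C26_REV-ERBa 9 reaches 1463 CPM of adipocyte and 97.8 CPM of airway markers, and the hepatocyte sum is above 200 CPM in 3 of the 9 atrial-rich libraries.

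Across 13168 tested genes, 310 were higher in the atrial-rich libraries (2.35%) and 14 lower (0.106%) at an edgeR adjusted p under 0.05. The count of lower genes ran from 2 without C26_REV-ERBa 4 to 47 without C26_GFP 6. Past a 2-fold difference there were 135 higher genes (1.03%) and 1 lower gene (0.00759%). For 18 genes (0.137%) every atrial-rich library was above every atrial-poor one, and for none (0%) was it the reverse. The median log2 fold change of all tested genes was -0.01. Without C26_REV-ERBa 9, PBS_GFP 2 and C26_REV-ERBa 10 the counts were 142 and 2, and with the summed hepatocyte markers as a covariate 53 and 0.

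Genes known from atrial muscle were among the largest differences. Of the 13 other atrial identity genes listed, all were tested and 11 were higher, with a median log2 fold change of 2.12 where the median of all genes was -0.01. The list stayed at 10 of 13 without C26_REV-ERBa 9, at 9 without the 3 libraries named above, and at 8 with the hepatocyte covariate. In bulk tissue a larger share of atrial cells and more of these transcripts per cell cannot be told apart.

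Nppa (NM_008725, chromosome 4, 148000746 to 148002067) was at 557 to 3382 CPM in the atrial-rich libraries, with a median of 1840, and at 35.8 to 213 in the atrial-poor ones, with a median of 98.5. The 2 lowest of the 9, C26_REV-ERBa 4 and 5 at 575 and 557 CPM, were still above all 15 atrial-poor libraries. The difference was 4.13 ± 0.31 (SE) on the log2 scale (adjusted p = 2.99e-09). Per kilobase, its median of 2219 CPM in the atrial-rich libraries compares with 4116 for the main cardiac myosin Myh6.

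Mybphl, a myosin-binding protein of the thick filament (NM_026831, chromosome 3, 108364911 to 108380057), was at 8.67 to 48.3 CPM with a median of 22.8 against 0.00 to 0.678 with a median of 0.184. The libraries between held 0.888 to 2.99 CPM, which is above every atrial-poor library and below every atrial-rich one. Its difference was the largest of the named genes, at 6.35 ± 0.36 (adjusted p = 2.39e-11), and this fitted value depends on counts near 0 in the atrial-poor libraries. Fgf12, an intracellular partner of sodium channels (NM_010199), was at 4.11 to 25.0 CPM against 0.00 to 1.17, a difference of 4.59 ± 0.33 (adjusted p = 2.34e-09).

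The kinase gene Sbk3 was at 61.0 to 357 CPM against 1.83 to 32.02, a difference of 3.90 ± 0.29 (adjusted p = 2.83e-09). Its relative Sbk2 was at 15.5 to 51.3 CPM against 5.31 to 10.2, a difference of 2.14 ± 0.18 (adjusted p = 2.27e-08). Dkk3, a secreted protein of the Dickkopf family, was at 75.4 to 490 CPM against 5.36 to 58.1, and Stard10, a lipid transfer protein, at 38.8 to 182 against 17.3 to 33.4. In none of these 4 genes did the classes overlap. Dkk3 differed by 3.75 ± 0.34 (adjusted p = 1.14e-07) and Stard10 by 2.03 ± 0.18 (adjusted p = 6.49e-08).

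The atrial transcription factors differed less than these structural and secreted products. Tbx5, which patterns the atria and the conduction system, was at 56.6 to 129 CPM against 32.5 to 73.7, a difference of 0.66 ± 0.11 (adjusted p = 0.00041). Nr2f2, a receptor that sets atrial identity, was at 37.1 to 64.8 CPM against 31.1 to 44.4, a difference of 0.30 ± 0.07 (adjusted p = 0.0215). The classes overlapped in both.

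**Figure D3:**
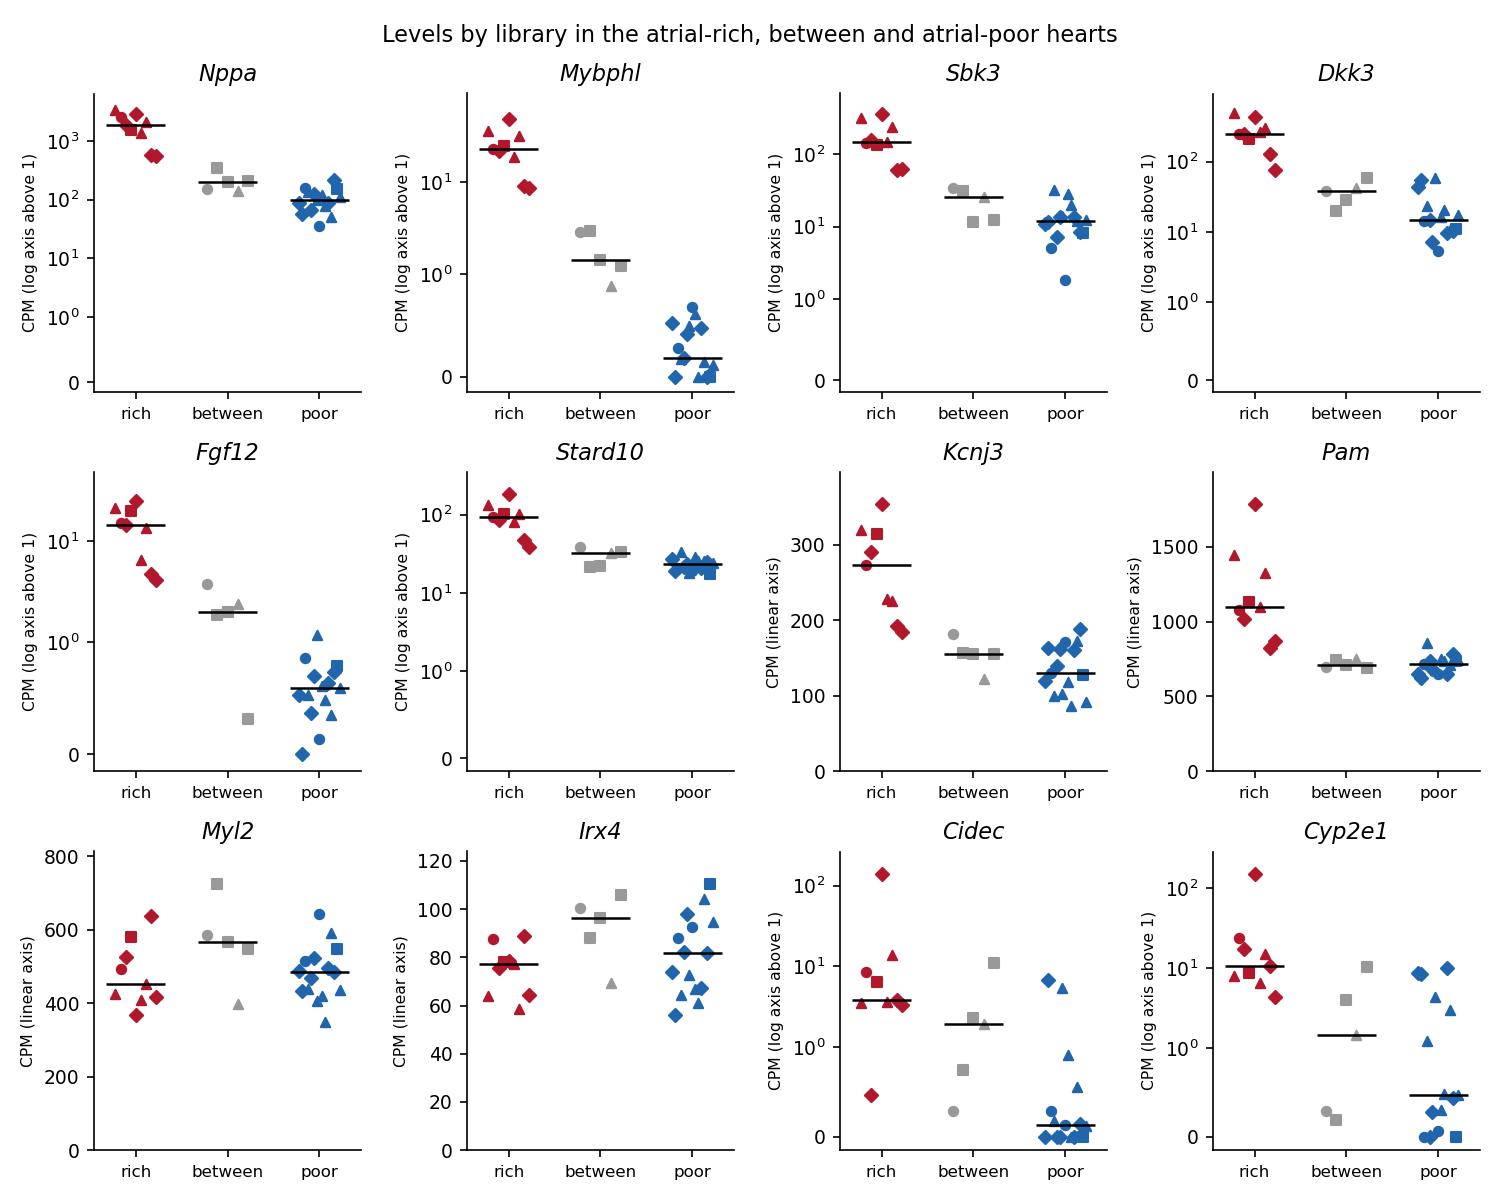
Level in CPM of 12 genes in each library by class, with shapes for the groups (circle PBS_GFP, square PBS_REV-ERBa, triangle C26_GFP, diamond C26_REV-ERBa) and a line at the median. Nppa, Mybphl, Sbk3, Dkk3, Fgf12 and Stard10 do not overlap between the rich and poor classes, Kcnj3 and Pam overlap slightly, and the ranges of Myl2 and Irx4 overlap, with the highest Irx4 levels in the poor class.

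Ion channel genes with atrial roles moved in part. Of 12 listed, 5 were higher and none lower, with a median of 0.22. Kcnj3 and Kcnj5 encode the subunits of the potassium channel that vagal acetylcholine opens. Kcnj3 was at 184 to 353 CPM against 85.8 to 189, a difference of 0.93 ± 0.13 (adjusted p = 4.29e-05), and Kcnj5 at 190 to 316 against 162 to 213, a difference of 0.30 ± 0.07 (adjusted p = 0.00878). Gja5, the atrial and conduction gap junction protein connexin 40, differed by 0.77 ± 0.13 (adjusted p = 0.000859). The calcium channel genes Cacna1d and Cacna1g differed by 0.65 ± 0.13 and 0.47 ± 0.12 (adjusted p = 0.0059 and 0.0334), and the second no longer passed when any of 12 libraries was left out.

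Other members of the list gave no call. Chrm2, the muscarinic receptor upstream of Kcnj3, was at 107 to 165 CPM against 86.6 to 129 (0.22 ± 0.07, adjusted p = 0.0841). Kcna5, which carries an atrial repolarising current in humans, was at 40.7 to 104 CPM against 56.5 to 132 (-0.36 ± 0.16, adjusted p = 0.36). Kcnk3 was at 837 to 1309 CPM against 906 to 1211 (-0.01 ± 0.06, adjusted p = 0.991). With the hepatocyte covariate Kcnj3 alone of this list was called, and the list's median was 0.26.

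Of 11 tested genes of the nodes and conduction system, 3 were higher, at a median of 0.18. Shox2, a factor of the sinus node, was at 0.802 to 12.6 CPM against 0.475 to 1.93, with PBS_REV-ERBa 3 and C26_REV-ERBa 9 at 9.77 and 12.6 and the other 7 at most at 3.08. The differences were 1.41 ± 0.34 for Shox2, 0.59 ± 0.14 for Rgs6, a brake on vagal signalling, and 0.45 ± 0.12 for Etv1, a factor of fast conduction (adjusted p = 0.0219, 0.0204 and 0.0335). None of the 3 was called without the 3 libraries named above.

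The ventricular part of the transcriptome showed no call. None of 15 ventricular identity genes passed in either direction, with a median of -0.06. Myl2 was at 367 to 636 CPM against 349 to 643 (-0.06 ± 0.08, adjusted p = 0.879), and Myl3 at 890 to 1656 against 948 to 1706 (-0.05 ± 0.07, adjusted p = 0.879). Irx4, a repressor of atrial genes in the ventricle, was at 58.7 to 89.0 CPM against 56.3 to 111 (-0.16 ± 0.10, adjusted p = 0.575). The ranges overlapped in each of these genes, and the highest Irx4 levels were in atrial-poor libraries. Irx1 and Irx2, relatives of Irx4, had lower medians in the atrial-rich libraries, with wide overlap. Irx1 was at 6.38 to 36.1 CPM with a median of 14.1 against 1.47 to 45.8 with a median of 26.8 (-0.61 ± 0.32, adjusted p = 0.475). Irx2 was at 2.91 to 24.96 CPM with a median of 8.58 against 0.919 to 28.1 with a median of 18.7 (-0.59 ± 0.39, adjusted p = 0.626). Within C26_GFP these 2 genes gave -1.38 ± 0.29 and -1.91 ± 0.35 (adjusted p = 0.108 and 0.0564), and within C26_REV-ERBa -0.08 ± 0.55 and 0.08 ± 0.59 (adjusted p = 0.992 and 0.995).

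The shared contractile and energy genes also gave no call. Of 18 sarcomere, 16 calcium cycling, 38 respiratory chain, 28 fatty acid oxidation and 24 glycolysis and creatine genes none passed, and the 5 medians lay between -0.09 and 0.00. Pln, the calcium pump inhibitor phospholamban, was the ventricular list's smallest p, at -0.10 ± 0.04 (adjusted p = 0.366). The stress genes Nppb and Acta1 were at -0.28 ± 0.29 and -0.35 ± 0.22 (adjusted p = 0.798 and 0.601), and none of 10 such genes passed. With errors of this size a missed threshold does not show equal levels of Nppb. Whether stress had a part in the level of Nppa was not tested.

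**Figure D4:**
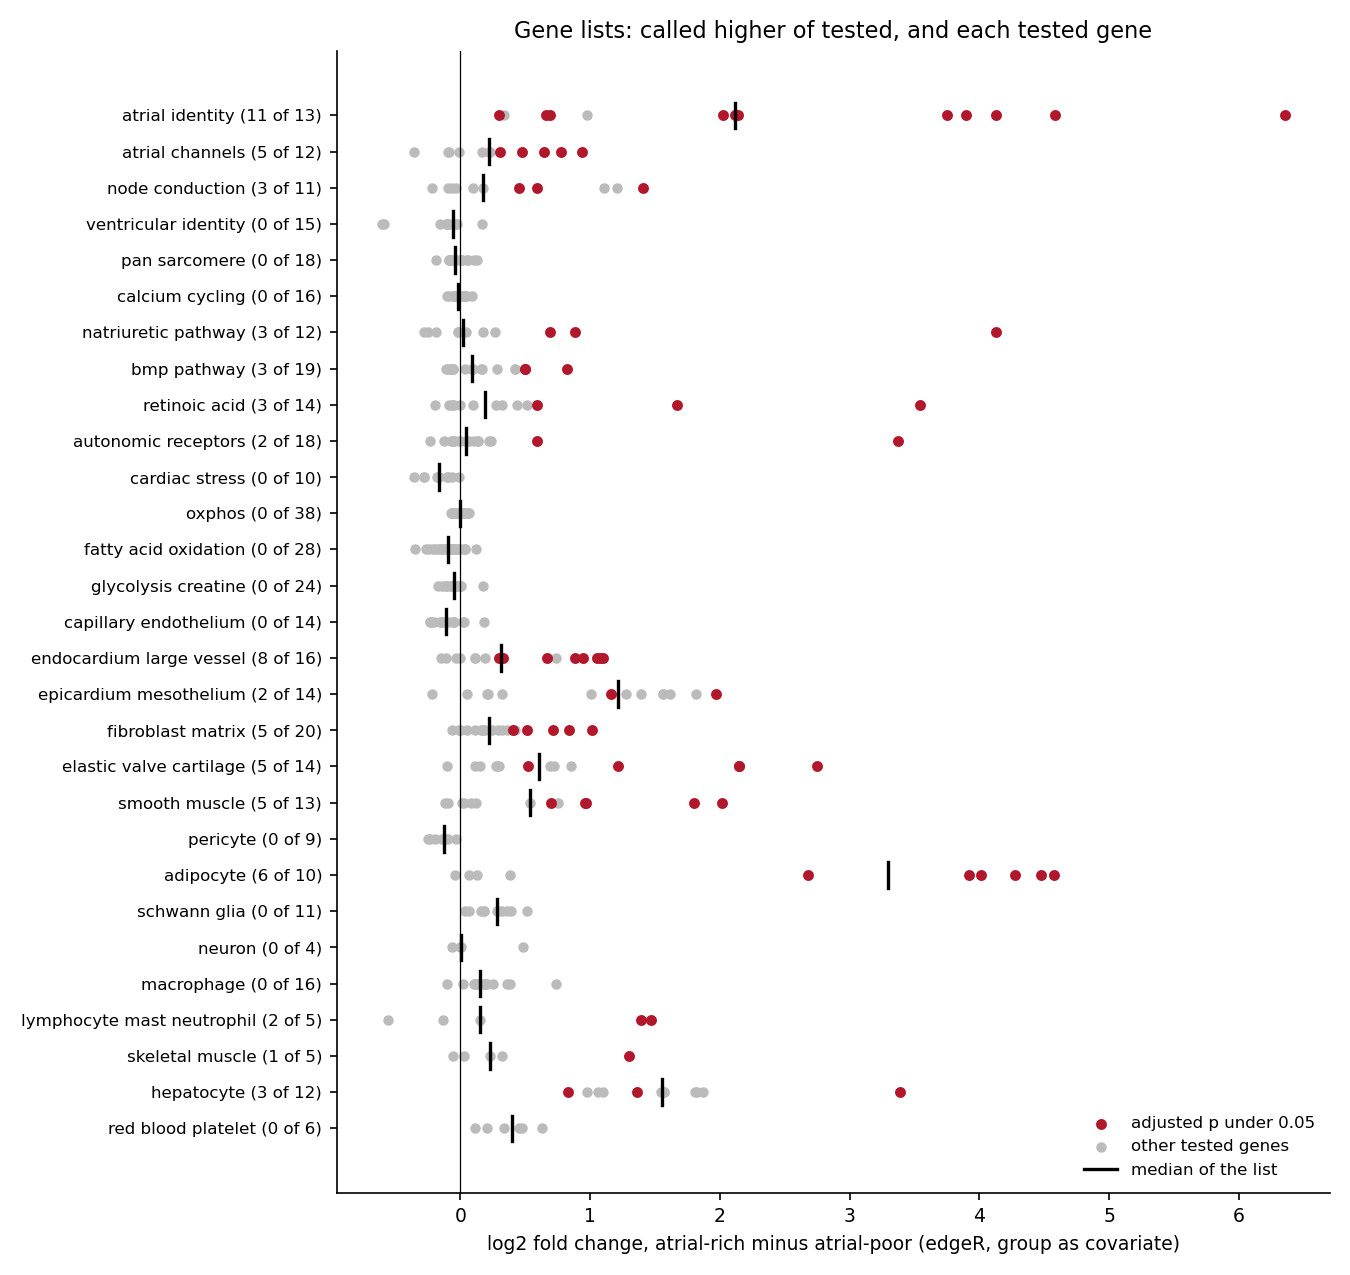
Log2 fold change, atrial-rich minus atrial-poor, of each tested gene in the lists with at least 4 tested genes, with called genes in red, others in grey and a bar at the list's median. The number called higher and the number tested stand beside each name, and atrial identity (11 of 13), endocardium (8 of 16) and adipocyte genes (6 of 10) hold the largest shares, where 2.35% of all genes were called higher.

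In the natriuretic pathway, 3 of 12 genes were higher. Beside Nppa these were Pam, an amidating enzyme that is a main protein of atrial granule membranes, and Npr3, the receptor that clears natriuretic peptides. Pam was at 822 to 1783 CPM against 624 to 855, a difference of 0.69 ± 0.10 (adjusted p = 6.14e-05). Npr3 was at 46.1 to 139 CPM against 31.99 to 67.6, a difference of 0.88 ± 0.14 (adjusted p = 0.000297). All 3 were called without the 3 libraries, and Nppa and Pam with the hepatocyte covariate.

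In the BMP pathway, to which Bmp10 belongs, 3 of 19 genes were higher (median 0.09), where 2.35% of all genes were. The 3 are known as targets of BMP signals, and whether such signals differed between the classes was not tested. Smad6, an inhibitor in this pathway, was at 37.3 to 72.1 CPM against 31.1 to 57.4, a difference of 0.50 ± 0.09 (adjusted p = 0.00115). The targets Id2 and Id4 differed by 0.50 ± 0.11 and 0.82 ± 0.21 (adjusted p = 0.0104 and 0.0303). Id2 did not pass without PBS_GFP 2, and Id4 did not when any of 7 libraries was left out. Without the 3 libraries Smad6 alone of these 3 was called, and with the hepatocyte covariate no gene of the list was (median 0.07). Of 14 retinoic acid genes 3 were higher, among them the retinol carrier Rbp4 and Rarres1, at 1.67 ± 0.34 and 3.55 ± 0.76 (adjusted p = 0.00491 and 0.00849). Rarres1 reached 22.4 CPM in C26_REV-ERBa 9 with a median of 0.715 CPM over the 9, and did not pass without that library. None of the 3 was called without the 3 libraries or with the hepatocyte covariate.

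Of 18 autonomic receptor genes, Gnao1, a G protein subunit of inhibitory receptors, was higher, at 35.1 to 69.5 CPM against 25.3 to 41.9 (0.59 ± 0.10, adjusted p = 0.00104). The other was Adrb3, the beta-3 adrenergic receptor known best from fat, at 0.304 to 21.9 CPM against 0.00 to 1.5 (3.38 ± 0.74, adjusted p = 0.0103). Its highest value was again in C26_REV-ERBa 9. Gnao1 alone of the 2 was called without the 3 libraries, and neither was with the hepatocyte covariate.

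Transcripts of the inner lining and of large vessels were higher and those of capillaries were not called. Of 16 endocardium and large vessel genes, which include Npr3 and Nr2f2 named above, 8 were higher (median 0.32), and of 14 capillary endothelium genes and 9 pericyte genes none (medians -0.11 and -0.12). Plvap, a protein of fenestrated and endocardial endothelium, was at 37.7 to 99.6 CPM against 8.68 to 49.8, a difference of 1.10 ± 0.15 (adjusted p = 6.44e-05). Bmx, an arterial and endocardial kinase, differed by 1.05 ± 0.19 (adjusted p = 0.00159). The capillary gene Cdh5 was at -0.15 ± 0.05 and Kdr at -0.21 ± 0.09 (adjusted p = 0.146 and 0.311). The endocardium count was 3 without the 3 libraries that stood apart (median 0.21), and 0 with the hepatocyte covariate (median 0.23).

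Connective tissue genes of valves and vessel roots were higher in part. Of 14 such genes 5 were higher (median 0.60), and the same 5 were called without the 3 libraries. Comp, a cartilage matrix protein, was at 1.83 to 10.7 CPM against 0.241 to 3.26, a difference of 2.15 ± 0.29 (adjusted p = 4.29e-05). Fmod, a collagen-binding proteoglycan, and Cytl1, a secreted cartilage protein, differed by 2.15 ± 0.36 and 1.22 ± 0.18 (adjusted p = 0.000758 and 0.000137). Comp was the gene of this list that stayed called with the hepatocyte covariate, where the median was 0.45.

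Of 20 fibroblast genes 5 were higher (median 0.22), with fibronectin (Fn1) at 45.3 to 116 CPM against 28.6 to 67.2 (0.71 ± 0.13, adjusted p = 0.00165). The others included Mfap4 and Serpinf1, at 1.02 ± 0.22 and 0.51 ± 0.11 (adjusted p = 0.00799 and 0.00745). Of 13 smooth muscle genes 5 were higher, among them Actg2, Itga8 and Cnn1 at 2.02 ± 0.43, 0.97 ± 0.22 and 1.80 ± 0.41 (adjusted p = 0.00745, 0.0114 and 0.0152). Actg2 was at 0.154 to 1.91 CPM against 0.00 to 0.666, a level of few counts. Itga8 and Cnn1 did not pass without C26_GFP 3, nor Cnn1 without PBS_GFP 2. With the adipocyte covariate, and also with the hepatocyte covariate, none of the 13 smooth muscle genes was called, and without the 3 libraries 3 were. The smooth muscle median was 0.54 in the main fit, 0.44 with the adipocyte and 0.70 with the hepatocyte covariate. Of the fibroblast genes none was called with the hepatocyte covariate (median 0.27) and 4 were without the 3 libraries (median 0.27). Of 14 epicardium and mesothelium genes 2 were higher, Gpm6a at 1.16 ± 0.21 and Lrrn4 at 1.97 ± 0.47 (adjusted p = 0.00148 and 0.0214), and Lrrn4 was lost without C26_REV-ERBa 9 or PBS_GFP 2. No gene of this list was called with the hepatocyte covariate or without the 3 libraries, and its median fell from 1.22 to 0.47 and 0.51.

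Several fat transcripts were higher in the atrial-rich libraries, though the summed adipocyte markers overlapped, with medians of 303 against 273 CPM. Of 10 tested adipocyte genes 6 were higher (median 3.30), at 5 without C26_REV-ERBa 9, 3 without the 3 libraries and 0 with the hepatocyte covariate, where the median was 1.32. Cfd, the fat-secreted factor adipsin, was at 0.616 to 144 CPM against 0.00 to 4.998, with a median of 4.86 against 0.176 (4.58 ± 0.82, adjusted p = 0.00148). Adipoq, the hormone adiponectin, was at 0.616 to 102 CPM against 0.00 to 3.55 (4.27 ± 0.79, adjusted p = 0.00179), and the lipid droplet genes Cidec and Plin1 at 0.462 to 140 and 1.06 to 85.7 CPM against 0.00 to 6.81 and 0.00 to 3.85 (4.47 ± 0.86 and 4.01 ± 0.76, adjusted p = 0.003 and 0.00231). The classes overlapped in all 4 genes. With the summed adipocyte markers as a covariate, 204 genes were higher over all genes and 9 of 13 in the atrial identity list. That fit still called 5 of the 10 adipocyte genes (median 1.89), so the covariate did not take out the difference in fat transcripts.

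Of 12 hepatocyte genes 3 were higher (median 1.56). Cyp2e1, an oxidising enzyme of liver that fat also makes, was at 4.41 to 153 CPM against 0.00 to 10.0 (3.39 ± 0.61, adjusted p = 0.00148), and the plasma proteins transferrin (Trf) and fetuin A (Ahsg) differed by 0.83 ± 0.17 and 1.36 ± 0.34 (adjusted p = 0.0067 and 0.0282). Alb itself was at 0.229 to 38.5 CPM against 0.278 to 13.9 and was not called. None of the 3 was called without the 3 libraries that stood apart.

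Other cell types contributed few calls. None of 16 macrophage, 11 Schwann cell, 4 neuron and 6 blood and platelet genes passed, nor did the 1 tested gene each of the lung and thymus lists, and of 5 tested lymphocyte, mast cell and neutrophil genes the mast cell proteases Mcpt4 and Cma1 did. Mcpt4 was at 0.76 to 2.38 CPM against 0.00 to 1.02 (1.39 ± 0.30, adjusted p = 0.00799), a level of few counts. Cma1 was at 0.477 to 3.44 CPM against 0.00 to 0.764 (1.47 ± 0.39, adjusted p = 0.0404) and lost its call in 15 of the 24 fits that left out 1 library. Of 5 tested skeletal muscle genes Atp2a1, the fast muscle calcium pump, passed at 1.30 ± 0.29 (adjusted p = 0.011) and was lost without C26_GFP 3. With the hepatocyte covariate none of these 3 genes was called.

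Of the 14 lower genes 1 was lower by more than 2-fold. Among those with at least 5 CPM the falls included Ramp3, a partner of the calcitonin receptor family, at 6.57 to 10.3 CPM against 8.55 to 13.4 (-0.35 ± 0.09, adjusted p = 0.0299), and Cacna1s, a calcium channel subunit best known from skeletal muscle, at 11.7 to 18.6 against 13.99 to 23.7 (-0.33 ± 0.09, adjusted p = 0.0462). Bcl2, Yipf7, Ntn1, Galnt7 and Esrrb lay between -0.21 and -0.18. Each of these 7 genes lost its call when at least 4 single libraries were left out in turn. The gene lower by more than 2-fold was Lrrn1, at 0.323 to 2.38 CPM against 0.833 to 5.83 (-1.13 ± 0.25, adjusted p = 0.013).

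The comparison was also fitted within smaller sets of hearts, of which C26_GFP, C26_REV-ERBa and the tumour-free hearts share no library. Within C26_GFP, with 3 atrial-rich and 6 atrial-poor libraries, 36 genes were higher (0.273%) and none lower (0%), with 510 and 201 at an unadjusted p under 0.05. Within C26_REV-ERBa, with 4 and 6 libraries, 8 were higher (0.0608%) and none lower (0%), with 662 and 292 unadjusted. All tumour-bearing hearts together gave 141 higher (1.07%) and 2 lower (0.0152%), and the tumour-free hearts 270 higher (2.05%) and 32 lower (0.243%). Called in both tumour-bearing groups were 7 genes, which is 19.4% of the first list and 87.5% of the second: Cilp2, Fgf12, Ifltd1, Mybphl, Nppa, Sbk2 and Sbk3. Each of these was called in the tumour-free hearts too, where Car3, a gene of the adipocyte list, had an adjusted p of 4.27e-07. Car3 was called in neither tumour-bearing group alone (adjusted p = 0.427 in C26_GFP and 0.265 in C26_REV-ERBa). It was called in all tumour-bearing hearts together, at a difference of 3.58 (edgeR adjusted p = 0.0297). All 36 genes of C26_GFP had a positive difference in C26_REV-ERBa as well, where 50.0% of all tested genes had one.

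Values of single genes are given by group, and the spread between groups was tested only by the interaction of the next paragraph. Sbk3 differed by 3.55 ± 0.32 in C26_GFP, 3.83 ± 0.45 in C26_REV-ERBa and 5.0 ± 0.30 in tumour-free hearts. Nppa differed by 4.51 ± 0.31 in C26_GFP, 3.75 ± 0.48 in C26_REV-ERBa and 4.22 ± 0.46 in the tumour-free hearts, which had 2 atrial-rich and 3 atrial-poor libraries (adjusted p = 6.05e-05, 0.00766 and 0.000507). Mybphl differed by 6.98 ± 0.37, 6.07 ± 0.66 and 5.60 ± 0.37. Cilp2, a matrix protein first described in cartilage, was at 8.57 to 29.5 CPM against 0.285 to 1.18 in all hearts and differed by 5.02 ± 0.37, 3.83 ± 0.29 and 5.15 ± 0.32. Cyp2e1 differed by 2.60 ± 0.57, 3.32 ± 0.97 and 8.43 ± 0.44, with an adjusted p of 0.13, 0.315 and 3.26e-06. All tumour-bearing hearts together gave 3.06 for Cyp2e1 (adjusted p = 0.0194), and its interaction of -5.37 ± 3.18 did not pass. Atrial-poor levels of Cyp2e1 reached 0.00 CPM, where fitted differences grow large. PBS_GFP 2, set apart above for its albumin, is among the 2 atrial-rich tumour-free libraries.

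**Figure D5:**
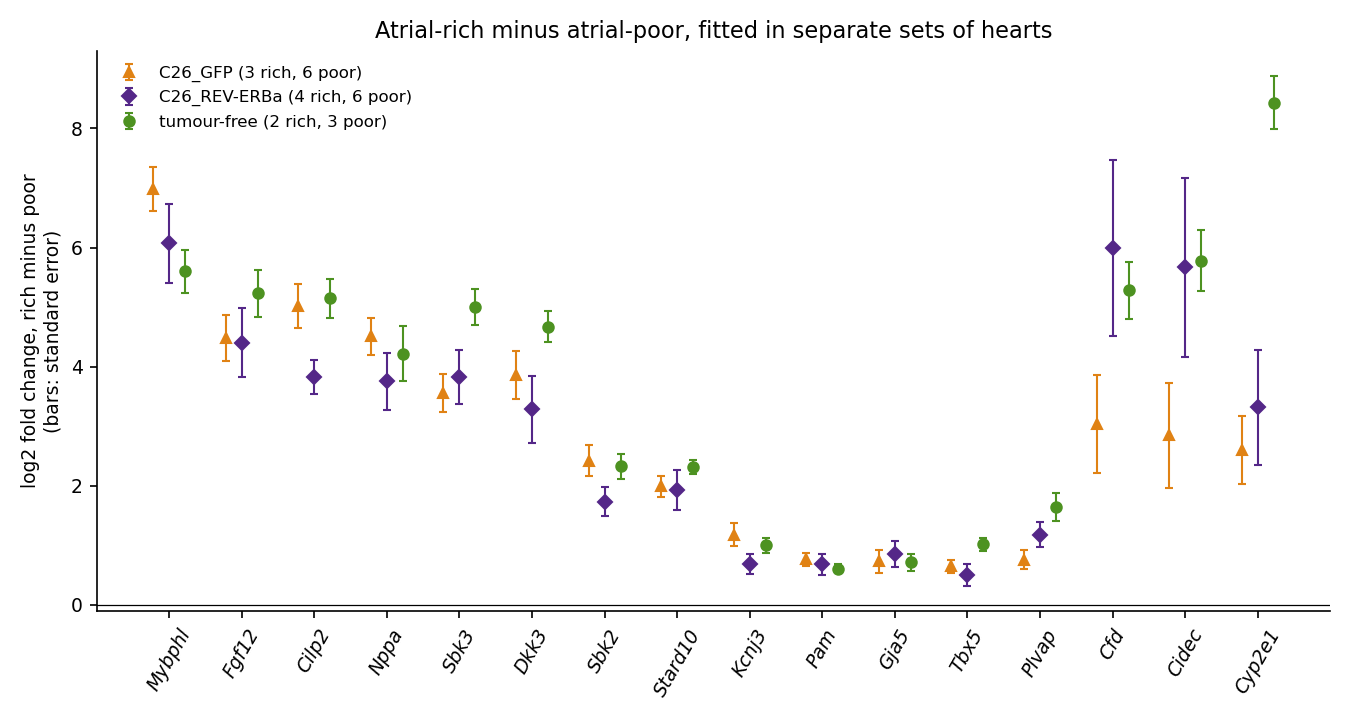
Log2 fold change, atrial-rich minus atrial-poor, with its standard error, of 16 genes fitted separately in C26_GFP, C26_REV-ERBa and tumour-free hearts. Nppa, Mybphl and Cilp2 are far above 0 in all 3 fits, while Cyp2e1 runs from 2.60 in C26_GFP to 8.43 in tumour-free hearts. For Cyp2e1 the interaction of class and tumour did not pass.

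The difference between atrial-rich and atrial-poor libraries was also compared between tumour-bearing and tumour-free hearts. None of 13168 genes passed in either direction (0%), with 229 higher and 221 lower at an unadjusted p under 0.05, and DESeq2 also called none, with 181 and 204 unadjusted. Nppa gave an interaction of -0.06 ± 0.75 (adjusted p = 1). With 2 atrial-rich tumour-free hearts the errors are wide, and a p that missed the threshold does not show equal differences. The smallest p belonged to Bmp2, a BMP ligand, with differences of 0.02 in C26_GFP, 0.29 in C26_REV-ERBa and 1.39 in tumour-free hearts (interaction -1.23, adjusted p = 0.838).

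The treatment comparisons were fitted with and without atrial class. For the tumour effect in GFP hearts (C26_GFP minus PBS_GFP, 9 and 3 libraries), 1433 genes were higher (10.9%) and 1342 lower (10.2%) with atrial class in the model, and 1349 (10.2%) and 1291 (9.8%) without it. Among the 310 genes higher in atrial-rich libraries, 51 were called for the tumour effect with class in the model (32 higher and 19 lower, 16.5%) and 18 without it (10 and 8, 5.81%), and all 18 were among the 51. The 310 genes were picked for their difference between the classes in these libraries, so a class term lowers their residual spread by construction, and these counts are a description only. Without PBS_GFP 1 the tumour effect over all genes fell to 693 higher and 646 lower genes.

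The tumour effect of single atrial genes is given with and without the class term. Sbk3 gave a tumour effect of 1.49 ± 0.51 with class (adjusted p = 0.0404) and 0.83 ± 1.27 without (adjusted p = 0.693). Tbx5 gave 0.65 ± 0.18 (adjusted p = 0.0113) and 0.61 ± 0.28 (adjusted p = 0.124). Nppa gave -0.02 ± 0.48 with class and -0.15 ± 1.33 without, neither of which passed (adjusted p = 0.981 and 0.956). The PBS_GFP arm holds 1 atrial-rich and 2 atrial-poor libraries here, so these values rest on few controls.

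In tumour-bearing hearts, the effect of the REV-ERBα virus (C26_REV-ERBa minus C26_GFP, 10 and 9 libraries) was fitted in the same way. Here 97 genes were higher (0.737%) and 103 lower (0.782%) with class in the model, and 130 (0.987%) and 129 (0.98%) without it. Of the 310 genes, 5 were called with class (1.61%) and 2 without (0.645%). These counts too are a description, for the same reason. The counts over all genes depended on single libraries, with 3 higher genes without C26_GFP 5, 1 lower gene without C26_GFP 7, and 650 higher and 646 lower without C26_GFP 6.

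The 18 genes whose classes did not overlap were also placed on the genome. On chromosome 7, Sbk2 (4957081 to 4964348), Sbk3 (4965260 to 4970961) and Zfp579 (4992852 to 4996101) lie within 100 kb of each other, and all 3 are on the minus strand. Zfp579, a zinc finger gene, was at 44.3 to 87.4 CPM against 25.4 to 41.8 (0.80 ± 0.09, adjusted p = 5.58e-06). Sort1, which encodes the sorting receptor sortilin and lies beside Mybphl on chromosome 3 (108284064 to 108361519), was at 117 to 216 CPM against 72.6 to 124 (0.70 ± 0.09, adjusted p = 3.13e-05). Of the 59 tested genes within 100 kb of the 18, 4 were higher (6.78%) and none lower, where 2.35% and 0.106% of all genes were. But 3 of those 4 are Sbk2, Sbk3 and Zfp579, which belong to the 18 and were already called, so they raise the share by choice. The other was Sort1.

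The 5 libraries between the classes were in no fit. Of the 310 higher genes 213 had the median of these 5 between the medians of the atrial-rich and atrial-poor libraries, and of the 14 lower genes 8. These genes were picked for separated classes and no share over all genes was taken, so the counts are a description only. The medians also take no account of group. The 5 libraries were 1 of PBS_GFP, 3 of PBS_REV-ERBa and 1 of C26_GFP, while 12 of 15 atrial-poor mice had tumours. Nppa was at 140 to 343 CPM in them, Sbk3 at 11.7 to 34.0 and Dkk3 at 20.2 to 59.2, above the atrial-poor medians of 98.5, 11.8 and 14.9 in all 5 libraries for Nppa and Dkk3 and in 4 of 5 for Sbk3. PBS_GFP 3, the highest of the 5 by score, held 155 CPM of Nppa, which is within the atrial-poor range.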

How the data were processed

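RNA was sequenced from 29 mouse hearts without poly(A) selection, as 50 bp paired-end reads of stranded libraries made from 50 to 100 ng of total RNA, per the labels' protocols. The deposited values are raw counts per RefSeq gene, with STAR 2.4.2a, the genome build mm10 and DESeq2 1.24.0 listed, per the submitters' processing notes. Neither the counting tool nor its strand setting is stated there. In the table, 1 count column matched no sample and was not used.

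The 24 libraries of the atrial-rich and atrial-poor classes were fitted with edgeR 4.0.16 in R 4.3.3 (TMM scaling, filterByExpr with a minimum count of 10 and a minimum total of 15, quasi-likelihood F test, Benjamini-Hochberg adjustment over all tested genes), with the 4 groups as a covariate. Each ± is a standard error, computed as the size of the log2 fold change divided by the square root of F. The depth and class comparisons used exact tests in scipy 1.17.1. The scripts were tested on simulated counts.

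Members, gene lists and tests were chosen with earlier results of these data known. Named genes were the 8 largest rises and 8 largest falls with a mean of at least 5 CPM, up to 3 genes of the smallest p in each of 31 lists (up to 6 in the atrial identity, atrial channel and ventricular lists), and the 5 smallest p of the interaction. Dkk3, Myl2, Myl3, Myh6, Tbx5, Nr2f2, Kcna5, Kcnk3, Hamp, Lrrn1, Ifltd1, Zfp579, Sort1, Alb, Ucp1 and Scgb1a1 fell outside that rule and were picked with their values in view. Some genes that the rule took are not reported here. Alternatives were other scalings, filters, covariates, class definitions, DESeq2 1.42.0, subsets of libraries and each library left out. Each mouse gave 1 library, and the lowest chi-square per degree of freedom between any of 406 pairs of libraries was 2.73, so none was counted as a repeat.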

Additional observations from a re-analysis of the deposited data

Results flagged for a closer look

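In 7 of 61 genes examined over the 9 atrial-rich libraries, 1 library lay far from the 8 others by Dixon's test, where chance gives about 1 in 20. In 6 of them the high library was C26_REV-ERBa 9, with 102 CPM of Adipoq, 85.7 of Plin1, 493.1 of Car3, 22.4 of Rarres1, 21.9 of Adrb3 and 153 of Cyp2e1. The same library held the highest adipocyte and airway sums given above, so these 6 genes do not count as separate cases against that rate. The other was Bcl2, at 55.8 CPM in PBS_REV-ERBa 3.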

How the results depend on the processing

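The main comparison gave 310 higher and 14 lower genes. DESeq2 gave 34 lower, a minimum of 1 CPM in 9 libraries 8 lower, and no group covariate 3 lower, each with a similar number higher. Tumour-bearing libraries alone gave 141 and 2, tumour-free ones 32 lower, C26_GFP alone 36 and 0 and C26_REV-ERBa alone 8 and 0, all with fewer libraries. Chosen after seeing the data, leaving out libraries above 10000000 counts gave 180 higher, the adipocyte covariate 204, the hepatocyte covariate 53 and 0, and leaving out the 3 libraries high in transcripts of other tissues 142 and 2. Leaving out each library in turn gave 224 to 375 higher and 2 to 47 lower genes, 693 to 1783 and 646 to 1667 for the tumour effect, 3 to 650 and 1 to 646 for the REV-ERBα effect, and 0 in both directions for the interaction. The ends came without PBS_REV-ERBa 3 and C26_REV-ERBa 5 for the higher genes, C26_REV-ERBa 4 and C26_GFP 6 for the lower, PBS_GFP 1 and C26_GFP 6 for the tumour effect, and C26_GFP 5, C26_GFP 7 and C26_GFP 6 for the REV-ERBα effect. With the continuous score over 29 libraries the REV-ERBα effect gave 490 and 470 genes. The cause was not tested for any of these. Scaling, the definition of the classes and a depth covariate left the counts of the main comparison within 1.5 times. Of 57 called named genes 36 kept the call in all 24 fits that left out 1 library, and none changed direction.

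Same-numbered libraries of different groups did not deviate together (32 pairs, median correlation -0.03, and 4 of 29 libraries correlated best with their own number), so the numbers were not taken as pairs. With the replicate number as a block the counts were 184 higher and 14 lower, 246 and 267 for the tumour effect, 1 and 1 for the REV-ERBα effect, and 0 for the interaction. Depth of 3207497 to 16853646 counts limits genes under about 1 CPM, where 3 counts equal 0.178 to 0.935 CPM in the libraries of the atrial-poor and between classes.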

Other observations

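Among the atrial-rich libraries, a low-abundance transcript varied beside Bmp10. Hamp, the iron hormone hepcidin, which heart muscle also makes, was chosen after its values were seen. In the order of the score it was at 4.36, 4.39, 4.93, 2.15, 2.13, 2.60, 0.115, 0.857 and 0.00 CPM, and the atrial-poor libraries were at 0.00 to 0.394. The 3 libraries with the most Bmp10 thus held the most Hamp, and C26_GFP 3 and C26_REV-ERBa 5, with the least Bmp10, the least Hamp. Of the 3 libraries with the most Hamp, PBS_GFP 2 and C26_REV-ERBa 10 also had hepatocyte marker sums of 201 and 277 CPM, and C26_GFP 9 had 60.9. The Hamp values are few counts per library, and no relation of Hamp to Bmp10 or to the hepatocyte markers was tested.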
